A study of Mus musculus with 9 samples.

Results

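The genes described here encode the ligands, receptors, SMAD proteins, extracellular modulators and *Id* targets of BMP and TGF-beta signalling in the embryonic mouse heart. A gene belongs here by its symbol and not by a measured value, though the families themselves were chosen with earlier results of these data known. They are *Bmp*, *Bmpr*, *Bmper*, *Tgfb*, *Tgfbr*, *Smad*, *Smurf*, *Acvr*, *Inhb*, *Gdf*, *Ltbp*, *Grem*, *Nog*, *Chrd* and *Fst*, with *Id1* to *Id4*. The annotation holds 73 genes with such a symbol, and 56 of them had a row among the 14011 genes of the expression table. The 17 without a row were *Bmp3*, *Bmp8a*, *Bmp8b*, *Bmp15*, *Gdf1*, *Gdf3*, *Gdf5*, *Gdf7*, *Gdf9*, *Gdf10*, *Gdf15*, *Inhbc*, *Inhbe*, *Grem1*, *Chrd*, *Chrdl2* and *Fstl5*. A family symbol does not always mean a role in the pathway, as for *Bmp2k*, which encodes a kinase.

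RNA was sequenced from whole hearts at E10.5 in 9 libraries, 3 for each of 3 genotypes, and each library came from a pool of 6 hearts of a mixed strain. Homozygotes were *Ctcf* fl/fl with *Nkx2.5-Cre*, and heterozygotes were *Ctcf* fl/+ with *Nkx2.5-Cre*. Controls had no Cre and are *Ctcf* fl/fl in the sample labels but *Ctcf* fl/+ in the paper's methods, so a comparison with controls includes the Cre driver and, by the labels, a difference from heterozygotes in floxed copies too. *Nkx2.5-Cre* acts in cardiac progenitors and their derivatives, so cells outside that lineage keep intact *Ctcf*, and the whole heart holds both kinds of cell. The table names the columns taken here as controls Het and those taken as heterozygotes DH, and the numbers in these names match no sample title. DH was read as double heterozygous, the growth protocol's term for the Cre heterozygotes, but Het is also the word the sample titles use for that group. The names therefore leave a doubt, and if these 2 groups were exchanged, each comparison with one would be a comparison with the other. The levels of *Ctcf*, which were not used to assign them, run the way the assignment says, lower in the columns taken as heterozygotes than in controls. These libraries are named by depth. Below, values are listed from the deepest to the shallowest library in controls and in heterozygotes, and as replicates 1, 2 and 3 in homozygotes.

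BMP, TGF-beta and activin ligands are secreted dimers that bring together type I and type II receptor kinases, and the type I receptor then phosphorylates receptor SMADs. SMAD1, SMAD5 and SMAD9 carry mostly BMP signals and SMAD2 and SMAD3 mostly TGF-beta and activin signals, each with SMAD4, and *Id* genes and inhibitory SMADs are common transcriptional targets. In the embryonic heart these pathways are known for patterning the atrioventricular canal, for the change of endocardial cells into cushion mesenchyme and for trabecular growth.

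The deposited values are reads, plus 0.5, scaled to an effective library size so that each library sums to about 1000000, and values below are in these units. Total reads were between 6698891 and 9654014 in controls, between 4294537 and 9896345 in heterozygotes and between 4437234 and 11629365 in homozygotes, and 1 read was worth between 0.0901 and 0.231 units. *Ctcf*, the deleted gene, stood at 122, 121 and 122 in controls, 101, 94.2 and 97.0 in heterozygotes and 79.6, 80.0 and 84.7 in homozygotes. The 3 groups did not overlap, and the homozygote mean was 67.0% of the control mean (log2 fold change -0.57, SE 0.06, adjusted p = 2.91e-05). Heterozygotes against controls gave -0.32 (SE 0.06, adjusted p = 0.0467), a call lost when any 1 library was left out (log2 fold change -0.34 to -0.30, adjusted p 0.0502 to 0.269). The middle control library stood apart in liver and endoderm markers, with *Afp* at 595 against 3.64 to 55.6 in the other libraries, and counts without it are given where they matter. Fold changes are on the log2(value + 0.5) scale, which understates the change of low genes. Genes were called at a limma adjusted p under 0.05, with 14011 genes and 9 libraries in one fit, and n = 3 per group.

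Between homozygotes and controls 15 of the 56 genes differed at this threshold, 3 higher and 12 lower in homozygotes. That is 26.8% of the genes, beside 15.2% of all genes tested (7.19% called higher and 8.03% called lower). The genes that fell included the ligands *Bmp2*, *Bmp7*, *Tgfb2* and *Gdf11*, the receptors *Bmpr2*, *Bmpr1b*, *Acvr1b*, *Tgfbr1* and *Tgfbr3* and the extracellular *Bmper*, *Ltbp1* and *Ltbp4*, while the ligands *Gdf6* and *Tgfb3* rose. The third gene called higher, *Inhbb*, has a row only through its homozygote libraries, since each gene of the table reaches 1 in 3 or more libraries. Of the 56 genes, *Inhbb* and *Chrdl1*, which has a row only through its heterozygote libraries, met that filter through 1 group, and among the other 54 there were 14 calls (25.9%), 2 higher and 12 lower. No SMAD gene and no *Id* gene was called. Over the 56 genes the log2 fold changes had a median of -0.19, against -0.00 for all genes, and 44 of the 56 fold changes were negative, beside 7025 of 14011 for all genes. Libraries of homozygotes and controls did not overlap in 5 genes higher and 21 genes lower, where 16.6% and 16.5% of all genes had no overlap in those directions. The 5 include *Inhbb*, whose row depends on its homozygote libraries. Without the middle control library, 11 were called (2 higher and 9 lower), beside 1618 of all 14011 genes. In that fit *Inhbb*, *Gdf11*, *Acvr1b*, *Tgfbr1* and *Ltbp4* lost their calls, so the 11 include a gene not called in the main fit. Without limma's trend between mean and variance the calls of *Bmp7*, *Gdf11*, *Acvr1b*, *Tgfbr1*, *Ltbp1* and *Ltbp4* were lost (adjusted p = 0.0606 for *Bmp7*), those of *Gdf11*, *Tgfbr1*, *Ltbp1* and *Ltbp4* also with the trend on gene length removed, and those of *Gdf11* and *Tgfbr1* in a fit of controls and homozygotes alone. With the length trend removed the log2 fold changes were -0.36 for *Gdf11*, -0.19 for *Tgfbr1*, -0.18 for *Ltbp1* and -0.28 for *Ltbp4*. In the main fit they were -0.38, -0.27, -0.34 and -0.36.

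**Figure D1:**
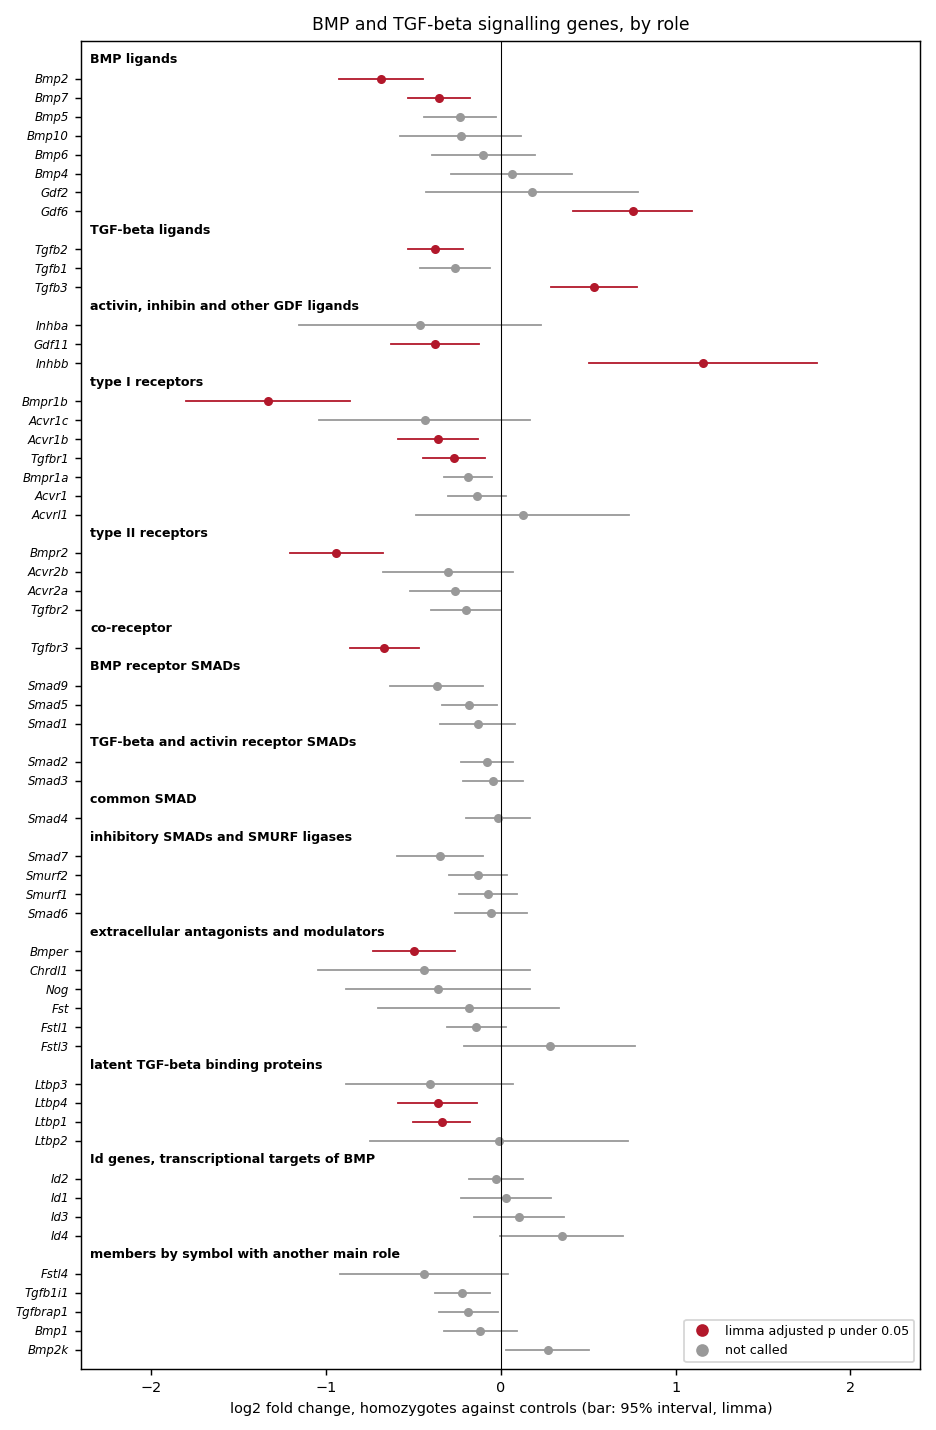
Log2 fold change of homozygotes against controls (x axis) for 55 of the 56 genes grouped by role (y axis), where points are limma estimates from 3 libraries per group, bars are 95% intervals and red marks an adjusted p under 0.05. The 15 called genes are ligands, receptors and extracellular proteins, and the SMAD and Id genes lie near 0 or are not called.

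Markers of several cell types moved in the same comparison. All 9 of 9 erythroid markers were higher, with summed values of 32556 to 47249 in controls, 26152 to 44298 in heterozygotes and 57884 to 76509 in homozygotes. Cushion mesenchyme markers had 4 of 10 lower (*Postn*, *Pdgfra*, *Tbx20* and *Vcan*), and their sum was 1872 to 2099 in controls, 1824 to 1914 in heterozygotes and 1359 to 1608 in homozygotes. Endothelial and endocardial markers had 3 of 12 lower and 1 higher, with sums of 1254 to 1380, 1201 to 1250 and 1058 to 1269 in the same order. Epicardial markers had 4 of 8 higher, from 440 to 504 in controls and 476 to 493 in heterozygotes to 601 to 671 in homozygotes. Cardiomyocyte markers all had a row, 14 rows for 13 symbols, with 1 called higher and 2 lower, and their sums were 22769 to 25601, 25664 to 29412 and 22308 to 25742. Of other markers with a row, 1 of 6 macrophage and 1 of 2 neural crest markers were lower, and 1 of 7 liver and endoderm markers higher. Over all genes 7.19% were called higher and 8.03% lower. Against heterozygotes all 9 erythroid and 4 of 8 epicardial markers were higher. In that comparison 3 of 10 cushion, 1 of 12 endothelial and endocardial and 4 of 14 cardiomyocyte markers were lower, and 0 were higher. The part of these cell types in the values of the signalling genes was not tested, and in whole hearts fewer cells of a type and less RNA per cell cannot be told apart.

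Among the 8 BMP ligand genes with a row, *Bmp2* and *Bmp7* fell, *Gdf6* rose and the other 5 were not called. *Bmp2* (ENSMUSG00000027358, chr2:133377895-133388621 of NCBIM37) is known as a signal from the atrioventricular canal myocardium for cushion formation. It stood at 33.7, 38.8 and 37.4 in controls, 31.3, 27.3 and 32.4 in heterozygotes and 19.2, 25.5 and 23.4 in homozygotes. Each homozygote library was below each library of the other groups, and each heterozygote library was below each control library, so the groups did not overlap. The log2 fold change of homozygotes was -0.69 against controls (SE 0.11, adjusted p = 0.00148) and -0.42 against heterozygotes (SE 0.11, adjusted p = 0.0243), and heterozygotes against controls gave -0.27 (SE 0.11, adjusted p = 0.62). The call against heterozygotes was lost without the deepest or shallowest heterozygote library or homozygote replicate 1 or 3 (log2 fold change -0.44 to -0.31, adjusted p 0.0525 to 0.0874).

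*Bmp7* (ENSMUSG00000008999, chr2:172693513-172765822), a ligand made in much of the early myocardium, stood at 116, 109 and 114 in controls, 122, 131 and 139 in heterozygotes and 96.6, 92.3 and 76.2 in homozygotes. Homozygotes were lowest and heterozygotes highest, with no overlap among the 3 groups. Its log2 fold change of homozygotes was -0.36 against controls (SE 0.08, adjusted p = 0.0117) and -0.57 against heterozygotes (SE 0.08, adjusted p = 0.000929), while heterozygotes against controls gave 0.21 (SE 0.08, adjusted p = 0.612).

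*Gdf6* (ENSMUSG00000051279, chr4:9771519-9789492), a ligand best known from joint and skeletal patterning, stood at 11.5, 7.86 and 8.84 in controls, 11.6, 13.3 and 10.0 in heterozygotes and 18.1, 15.8 and 14.4 in homozygotes. The homozygote libraries were above all others, and controls and heterozygotes overlapped. The fitted log2 fold change was 0.75 against controls (SE 0.16, adjusted p = 0.00732) and 0.45 against heterozygotes (SE 0.16, adjusted p = 0.0785). Of the ligands not called, *Bmp10*, the ligand of the trabecular myocardium, averaged 27.6 ± 4.34 in controls, 32.6 ± 3.59 in heterozygotes and 23.8 ± 5.67 in homozygotes (SD, n = 3 each), and its log2 fold change against heterozygotes was -0.47 (95% interval from -0.82 to -0.12, adjusted p = 0.0699). *Bmp5* gave -0.23 against controls (95% interval from -0.44 to -0.03, adjusted p = 0.122). *Bmp4*, which is needed in the outflow tract, gave 0.06 (95% interval from -0.28 to 0.41), *Bmp6* -0.10 and *Gdf2*, with values of 0.807 to 1.83, gave 0.18.

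The TGF-beta ligand genes moved in opposite directions. *Tgfb2* (ENSMUSG00000039239, chr1:188447065-188529871), which acts in cushion formation and outflow tract development, stood at 84.8, 86.5 and 88.2 in controls, 94.8, 87.6 and 81.1 in heterozygotes and 61.9, 71.7 and 66.7 in homozygotes. Every homozygote library was below all 6 others, while controls and heterozygotes overlapped. For this gene the log2 fold change was -0.37 against controls (SE 0.07, adjusted p = 0.00452) and -0.39 against heterozygotes (SE 0.07, adjusted p = 0.00372). *Tgfb3* (ENSMUSG00000021253, chr12:87397694-87419991), known for its role in palate fusion, stood at 14.7, 13.8 and 15.7 in controls, 15.2, 15.6 and 12.6 in heterozygotes and 22.8, 21.7 and 20.0 in homozygotes. Here the homozygote libraries were above all others, with log2 fold changes of 0.53 against controls (SE 0.11, adjusted p = 0.00808) and 0.57 against heterozygotes (SE 0.11, adjusted p = 0.00631). *Tgfb1*, the form linked most to endothelial and blood cells, had a log2 fold change of -0.27 against controls and was not called (95% interval from -0.47 to -0.07, adjusted p = 0.0708).

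Levels of the TGF-beta ligands were compared per kilobase of annotated exon. *Tgfb2* stood between 17.5 and 18.2 units per kilobase in controls and between 12.8 and 14.8 in homozygotes, and *Tgfb3* between 4.08 and 4.64 in controls and between 5.92 and 6.74 in homozygotes. *Tgfb2* thus remained the higher of the pair in every library. The ratio of *Tgfb2* to *Tgfb3* was 3.92 to 4.38 in control libraries, 3.93 to 4.51 in heterozygote libraries and 1.89 to 2.33 in homozygote libraries. This ratio was chosen after the values were seen and is given as a description.

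**Figure D2:**
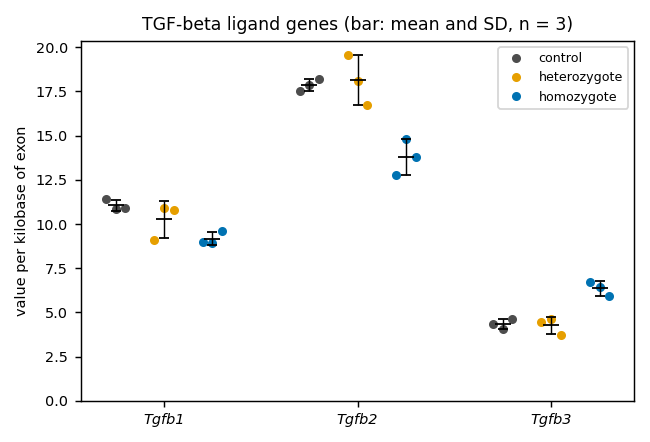
Value per kilobase of exon (y axis) of the 3 TGF-beta ligand genes (x axis) in each library, with points for libraries coloured by genotype and bars for the mean and SD (n = 3). Tgfb2 was lower and Tgfb3 higher in homozygotes than in every other library, and Tgfb2 stayed above Tgfb3 throughout.

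Of the activin and related ligands, 3 had a row. *Inhbb* (ENSMUSG00000037035, chr1:121312042-121318825), which encodes the activin beta-B subunit, stood at 0.356, 0.407 and 0.512 in controls, 1.32, 1.32 and 0.807 in heterozygotes and 1.25, 2.12 and 1.40 in homozygotes. Control libraries were below all others, and heterozygotes and homozygotes overlapped. These are few reads: 9 summed over controls (3 per library) and 32 over homozygotes, a depth-scaled ratio of 4.20 (95% counting interval from 1.96 to 9.99, which covers counting error only). It reached a value of 1 in 0 control, 2 heterozygote and 3 homozygote libraries, so it met the table's filter only through the group where it was high, and its call supports no difference. In that fit the log2 fold change against controls was 1.15 (SE 0.30, adjusted p = 0.0214) and 2.03 by edgeR, and the limma call was lost without any 1 control library or without homozygote replicate 2 or 3 (log2 fold change 0.98 to 1.22, adjusted p 0.0511 to 0.0775).

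*Gdf11* (ENSMUSG00000025352, chr10:128319351-128328774), which patterns the body axis, stood at 22.0, 26.5 and 27.3 in controls, 26.1, 25.5 and 22.0 in heterozygotes and 21.7, 17.3 and 19.0 in homozygotes. Homozygote libraries were below all others by a narrow gap, with 21.7 in replicate 1 against 22.0 in the lowest of the others. Its log2 fold change was -0.38 against controls (SE 0.12, adjusted p = 0.0439) and -0.34 against heterozygotes (SE 0.12, adjusted p = 0.0704). The call against controls was lost without the middle or shallowest control library, the deepest or middle heterozygote library or homozygote replicate 2 or 3 (log2 fold change -0.38 to -0.30, adjusted p 0.0510 to 0.166). Against heterozygotes the call was gained without homozygote replicate 1 (log2 fold change -0.42, adjusted p = 0.0415). *Inhba*, the activin beta-A subunit, had values of 0.931 to 2.84 and was not called.

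The bases just upstream of the start of 2 called ligand genes are shown because such windows are where factor motifs of these genes would be searched first. Of the 6 ligands with the largest changes among those called, *Inhbb* is left out here because its call supports no difference, RefSeq's promoter table (GRCm38.p6) held *Gdf11* and *Tgfb2*, and *Gdf6*, *Bmp2* and *Tgfb3* had no entry. The 250 bases upstream of each RefSeq start were found unchanged in NCBIM37 on the minus strand, at chr10:128328775-128329024 for *Gdf11* and at chr1:188529869-188530118 for *Tgfb2*. Capitals mark CCCTC, the letters in the name CCCTC-binding factor (CTCF), and CAGAC, the complement of the SMAD element GTCTG.
Gdf11: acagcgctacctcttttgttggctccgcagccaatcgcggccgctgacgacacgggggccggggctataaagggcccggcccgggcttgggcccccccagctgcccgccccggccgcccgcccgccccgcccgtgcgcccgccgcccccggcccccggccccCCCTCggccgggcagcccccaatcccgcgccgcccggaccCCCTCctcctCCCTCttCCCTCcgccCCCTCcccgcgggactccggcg
Tgfb2: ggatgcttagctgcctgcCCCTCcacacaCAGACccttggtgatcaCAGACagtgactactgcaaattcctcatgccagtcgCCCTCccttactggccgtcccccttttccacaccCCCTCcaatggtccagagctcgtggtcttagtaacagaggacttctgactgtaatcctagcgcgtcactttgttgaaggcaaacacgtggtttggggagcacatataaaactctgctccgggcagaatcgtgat
The letters CCCTC, read on both strands, occurred 5 times in the *Gdf11* window and 3 times in that of *Tgfb2*, and 60.5% of 32851 RefSeq promoter windows of that length hold them. GTCTG, on either strand, occurred 2 times in the *Tgfb2* window and not in the other, and 42.2% of windows hold it. The GC-rich SMAD elements GGCGCC (9.59% of windows) and TGGCGCC (3.21%, and it contains GGCGCC) were in neither window. The E-box CANNTG (66.2% of windows) occurred 1 time each upstream of *Gdf11* and *Tgfb2*. Such matches describe letters only.

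Of the 7 type I receptor genes, 3 fell against controls and 6 had negative fold changes. Over all 14011 genes 8.03% were called lower and 7025 had negative fold changes. *Bmpr1b* (ENSMUSG00000052430, chr3:141500100-141832389), a BMP receptor best known from limb cartilage, stood at 6.05, 6.81 and 5.63 in controls, 5.74, 3.97 and 6.11 in heterozygotes and 1.70, 2.79 and 2.03 in homozygotes. All homozygote libraries were below all others, and the homozygote mean was 35.3% of the control mean. This was the largest fall among the 56 genes, with log2 fold changes of -1.33 against controls (SE 0.22, adjusted p = 0.00159) and -1.11 against heterozygotes (SE 0.22, adjusted p = 0.00511). *Acvr1b* (ENSMUSG00000000532, chr15:101004556-101043032), an activin and nodal receptor, stood at 29.0, 34.5 and 32.2 in controls, 30.6, 29.7 and 34.9 in heterozygotes and 23.0, 28.3 and 23.1 in homozygotes. Homozygotes were again below all others, though replicate 2 came within 1 unit of the lowest control. Its log2 fold change was -0.36 against controls (SE 0.11, adjusted p = 0.0364) and -0.35 against heterozygotes (SE 0.11, adjusted p = 0.044). The first call was lost without the middle or shallowest control library or homozygote replicate 1 or 3 (log2 fold change -0.35 to -0.30, adjusted p 0.104 to 0.127), and the second without the shallowest control library, any 1 heterozygote library or homozygote replicate 1 or 3 (log2 fold change -0.40 to -0.28, adjusted p 0.0554 to 0.152).

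*Tgfbr1* (ENSMUSG00000007613, chr4:47366094-47427803), the type I receptor of TGF-beta, stood at 132, 140 and 146 in controls, 141, 127 and 125 in heterozygotes and 117, 129 and 102 in homozygotes. Homozygotes were below controls, and heterozygotes overlapped both. Against controls the log2 fold change was -0.27 (SE 0.08, adjusted p = 0.0404), and against heterozygotes -0.18 (SE 0.08, adjusted p = 0.171). The call was lost without the middle or shallowest control library, the middle heterozygote library or homozygote replicate 1 or 3 (log2 fold change -0.28 to -0.18, adjusted p 0.0506 to 0.16). *Bmpr1a* (ENSMUSG00000021796, chr14:35223920-35316527), the main BMP receptor of the myocardium, stood at 178, 188 and 192 in controls, 184, 193 and 193 in heterozygotes and 153, 179 and 158 in homozygotes. Homozygotes were below every heterozygote library and overlapped controls, where replicate 2 was above the lowest control. It was called against heterozygotes (log2 fold change -0.22, SE 0.06, adjusted p = 0.0378) but not against controls (-0.19, SE 0.06, adjusted p = 0.0628).

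The *Bmpr1a* call against heterozygotes was lost without the middle control library, any 1 heterozygote library or homozygote replicate 1 or 3 (log2 fold change -0.24 to -0.17, adjusted p 0.0511 to 0.121), and against controls a call was gained without homozygote replicate 2 (log2 fold change -0.26, adjusted p = 0.017) and with quantile normalization. An exon of *Bmpr1a* overlaps *Gm17110* on the opposite strand, and as the counting is not stated to use strand, their reads cannot be told apart. *Acvr1*, a BMP receptor of endocardium and cushions, gave -0.14 (95% interval from -0.30 to 0.03) and *Acvr1c*, with values of 2.16 to 6.11, gave -0.44 (95% interval from -1.04 to 0.17). *Acvrl1*, the endothelial receptor of BMP9 and BMP10, gave 0.12 (95% interval from -0.49 to 0.73). *Acvrl1* starts 45.6 kb from *Acvr1b* on chromosome 15 in the same orientation.

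All 4 type II receptor genes had negative fold changes against controls, as did 7025 of all 14011 genes. *Bmpr2* (ENSMUSG00000067336, chr1:59821481-59927703), the type II receptor most particular to BMPs, was called. It stood at 32.3, 42.7 and 48.8 in controls, 29.8, 28.4 and 29.6 in heterozygotes and 20.8, 19.7 and 22.4 in homozygotes. The 3 groups did not overlap, heterozygotes lay between the others, and the control libraries spread most (41.2 ± 8.33, 29.3 ± 0.729 and 21.0 ± 1.34, SD, n = 3 each). The homozygote mean was 50.8% of the control mean, a log2 fold change of -0.94 (SE 0.12, adjusted p = 0.000328). Against heterozygotes the log2 fold change was -0.47 (SE 0.12, adjusted p = 0.0223), a call lost without the deepest or shallowest heterozygote library or homozygote replicate 1 or 2 (log2 fold change -0.47 to -0.43, adjusted p 0.0516 to 0.069). Heterozygotes against controls gave -0.47 (SE 0.12, adjusted p = 0.291), and without the deepest control library this was called (log2 fold change -0.63, adjusted p = 0.04). *Acvr2b*, *Acvr2a* and *Tgfbr2* gave -0.30, -0.26 and -0.20 with adjusted p of 0.268, 0.162 and 0.174.

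The co-receptor gene *Tgfbr3* (ENSMUSG00000029287, chr5:107535589-107718648), which encodes betaglycan and presents TGF-beta2 to the signalling receptors, stood at 93.2, 90.7 and 109 in controls, 91.5, 98.3 and 102 in heterozygotes and 66.9, 63.7 and 53.4 in homozygotes. Every homozygote library was below all 6 others, and controls and heterozygotes overlapped. The fitted log2 fold change was -0.67 against controls (SE 0.09, adjusted p = 0.000431) and -0.66 against heterozygotes (SE 0.09, adjusted p = 0.000572), and heterozygotes against controls gave -0.00 (95% interval from -0.20 to 0.19).

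**Figure D3:**
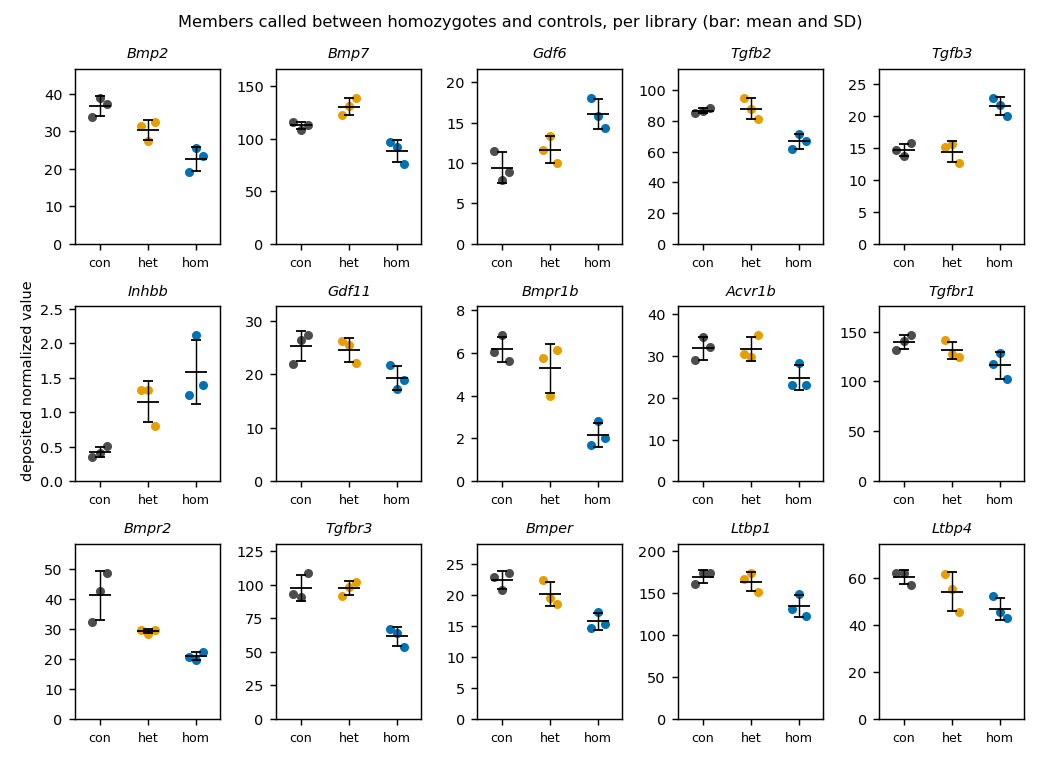
Deposited value (y axis, from 0) of the 15 genes called between homozygotes and controls in each library of controls (con), heterozygotes (het) and homozygotes (hom), with bars for the mean and SD (n = 3). Homozygote points are clear of control points in every panel, and Gdf6, Tgfb3 and Inhbb are the panels where they are higher.

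The SMAD genes encode the transducers inside the cell. None of the 8 was called against controls, and *Smad7*, an inhibitory SMAD that is itself a target of TGF-beta signalling, was called against heterozygotes. *Smad7* (ENSMUSG00000025880) stood at 29.9, 28.6 and 35.2 in controls, 33.8, 33.9 and 28.0 in heterozygotes and 28.0, 22.6 and 22.7 in homozygotes. Homozygotes were below controls, and replicate 1 reached the lowest heterozygote library. For this gene the log2 fold change was -0.38 against heterozygotes (SE 0.12, adjusted p = 0.0447) and -0.35 against controls (SE 0.12, adjusted p = 0.0574). The call was lost without the deepest control library, the deepest or middle heterozygote library or homozygote replicate 2 or 3 (log2 fold change -0.38 to -0.33, adjusted p 0.0595 to 0.145). Against controls *Smad7* was called without the shallowest heterozygote library or homozygote replicate 1 (log2 fold change -0.45 to -0.35, adjusted p 0.026 to 0.0486), by edgeR and with a filter on the mean value of 5.

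The BMP receptor SMADs *Smad9*, *Smad5* and *Smad1* gave log2 fold changes of -0.37, -0.18 and -0.13 against controls. *Smad9* had no overlap between homozygotes (10.1 ± 0.494) and controls (13.2 ± 0.916) and missed the threshold (adjusted p = 0.0608). The TGF-beta and activin SMADs *Smad2* and *Smad3* gave -0.08 (95% interval from -0.23 to 0.07) and -0.04 (-0.21 to 0.13), the common partner *Smad4* gave -0.02 (-0.20 to 0.17) and the inhibitory *Smad6* gave -0.06 (-0.26 to 0.15). These intervals leave out a change of the size seen in *Bmpr2* or *Tgfbr3*. The ubiquitin ligases *Smurf1* and *Smurf2*, which mark SMADs and receptors for degradation, gave -0.07 and -0.13 and were not called.

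The *Id* genes, which encode inhibitors of basic helix-loop-helix factors and are direct targets of BMP signalling, were not called in any comparison. Control and homozygote means were 42.3 ± 3.50 and 43.2 ± 4.96 for *Id1*, 152 ± 5.75 and 149 ± 7.19 for *Id2*, 111 ± 10.8 and 119 ± 17.1 for *Id3* and 5.84 ± 0.968 and 7.52 ± 0.627 for *Id4* (SD, n = 3). Libraries of both groups overlapped for *Id1*, *Id2* and *Id3*, and homozygotes were above controls for *Id4*. The log2 fold changes were 0.03 (95% interval from -0.23 to 0.29), -0.03 (-0.18 to 0.13), 0.11 (-0.15 to 0.36) and 0.35 (-0.00 to 0.70) for *Id1* to *Id4*, and the lowest adjusted p was 0.173.

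**Figure D4:**
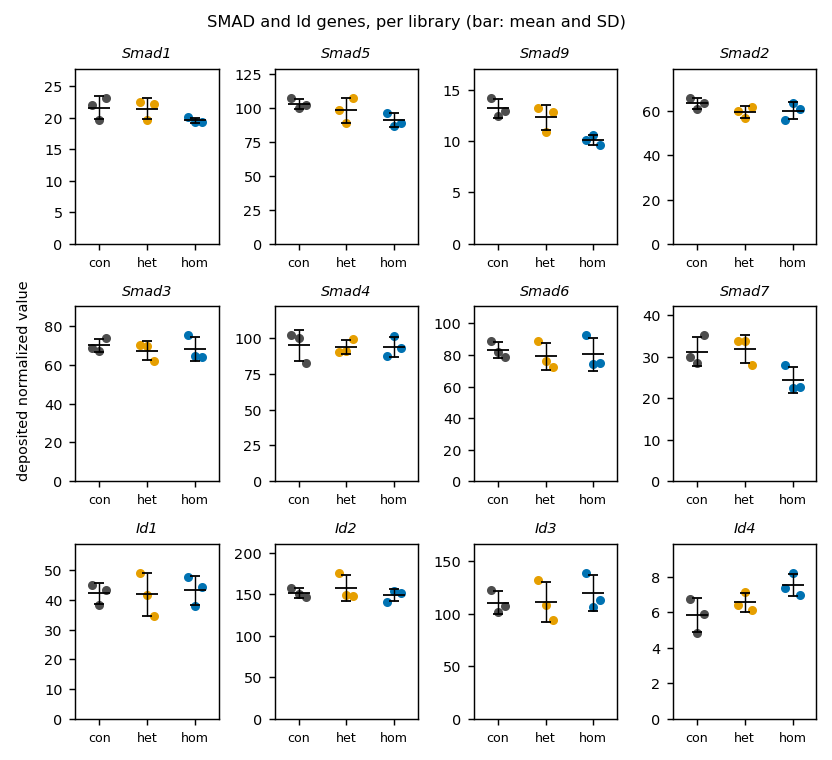
Deposited value (y axis, from 0) of the SMAD and Id genes in each library of controls (con), heterozygotes (het) and homozygotes (hom), with bars for the mean and SD (n = 3). Homozygote points overlap control points in most panels, and lie clear of them for Smad5, Smad7, Smad9 and Id4, none of which was called between these groups.

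Among the extracellular antagonists and modulators, 1 of the 7 genes with a row fell against controls (14.3%, near the 15.2% of all genes). *Bmper* (ENSMUSG00000031963, chr9:23027520-23289646), which encodes a BMP-binding protein of endothelial cells, stood at 22.9, 20.8 and 23.6 in controls, 22.4, 19.6 and 18.6 in heterozygotes and 14.6, 17.3 and 15.4 in homozygotes. Homozygote libraries were below all others, with a log2 fold change of -0.50 against controls (SE 0.11, adjusted p = 0.00921). Against heterozygotes it was -0.35 (SE 0.11, adjusted p = 0.0527), and this was called without homozygote replicate 2 (-0.41, adjusted p = 0.0421), by edgeR and with a filter on the mean value of 5. *Chrdl1* (ENSMUSG00000031283, chrX:139720217-139828805), which encodes a chordin-like BMP antagonist, stood at 0.864, 1.22 and 1.53 in controls, 2.30, 1.58 and 2.19 in heterozygotes and 0.795, 0.592 and 0.856 in homozygotes. Homozygotes were lowest and heterozygotes highest, without overlap, at a level of few reads. It reached a value of 1 in 2 control, 3 heterozygote and 0 homozygote libraries and so met the table's filter only through the heterozygotes, the group where it was highest, and its call against them (log2 fold change -1.01, SE 0.28, adjusted p = 0.031) supports no difference. It was not called against controls (-0.44, adjusted p = 0.33), and the call was lost without the deepest or shallowest heterozygote library or any 1 homozygote replicate (log2 fold change -1.07 to -0.92, adjusted p 0.0503 to 0.106). The BMP antagonist *Nog*, the activin antagonist *Fst* and the related *Fstl1* and *Fstl3* were not called and gave log2 fold changes of -0.36, -0.19, -0.14 and 0.28 against controls.

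The latent TGF-beta binding proteins tether TGF-beta to the matrix, and 2 of the 4 genes fell against controls, where 8.03% of all genes were called lower. *Ltbp1* (ENSMUSG00000001870, chr17:75404908-75791852) stood at 161, 174 and 174 in controls, 166, 173 and 151 in heterozygotes and 131, 149 and 123 in homozygotes. Homozygotes were below all others, with log2 fold changes of -0.34 against controls (SE 0.08, adjusted p = 0.0098) and -0.29 against heterozygotes (SE 0.08, adjusted p = 0.0244). *Ltbp1* is a long gene, and with the trend on gene length removed its fold change was -0.18 against controls (adjusted p = 0.128) and -0.18 against heterozygotes (adjusted p = 0.122), and neither was called. The call against heterozygotes was also lost without the deepest or middle heterozygote library or homozygote replicate 1 or 3 (log2 fold change -0.27 to -0.22, adjusted p 0.0632 to 0.104).

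*Ltbp4* (ENSMUSG00000040488, chr7:28090155-28122711) stood at 62.2, 62.3 and 57.1 in controls, 61.9, 55.4 and 45.6 in heterozygotes and 52.3, 45.8 and 43.2 in homozygotes. Homozygotes were below controls, and heterozygotes overlapped both groups. Its log2 fold change against controls was -0.36 (SE 0.10, adjusted p = 0.0328), a call lost without any 1 control library or homozygote replicate 2 or 3 (log2 fold change -0.40 to -0.30, adjusted p 0.0588 to 0.119). *Ltbp3* was not called, and *Ltbp2*, with values of 0.585 to 2.38, gave -0.01 and was not called either.

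Of the 5 genes that the symbols bring in with another main role, none was called against controls and *Bmp2k* and *Fstl4* were called against heterozygotes. *Bmp2k* (ENSMUSG00000034663, chr5:97426708-97520886), a kinase of endocytosis, stood at 76.1, 83.2 and 70.7 in controls, 54.1, 72.2 and 71.6 in heterozygotes and 83.7, 90.0 and 104 in homozygotes. Homozygotes were above all others, with a log2 fold change of 0.49 against heterozygotes (SE 0.11, adjusted p = 0.0114) and 0.27 against controls (SE 0.11, adjusted p = 0.123), and the first was lost without homozygote replicate 3 (0.40, adjusted p = 0.0527). Its exons overlap *Paqr3* on the opposite strand. *Fstl4* (ENSMUSG00000036264, chr11:52578136-53002040), a follistatin-like gene, stood at 7.37, 8.44 and 8.70 in controls, 9.27, 10.4 and 10.5 in heterozygotes and 4.43, 9.39 and 4.82 in homozygotes. Replicate 2 of the homozygotes lay within the range of heterozygotes, and replicates 1 and 3 were below all other libraries. The fitted log2 fold change against heterozygotes was -0.73 (SE 0.22, adjusted p = 0.0461), a call lost when any library other than homozygote replicate 2 was left out (log2 fold change -0.78 to -0.54, adjusted p 0.0559 to 0.161), and against controls a call was gained without replicate 2 (-0.76, adjusted p = 0.0105). The protease gene *Bmp1* gave -0.12, and *Tgfb1i1* and *Tgfbrap1* gave -0.22 and -0.19 (adjusted p of 0.0562 and 0.126).

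Homozygotes and heterozygotes both carry *Nkx2.5-Cre*, so their comparison leaves the driver out. Of the 56 genes, 14 were called, 2 higher (*Tgfb3* and *Bmp2k*) and 12 lower (*Bmp2*, *Bmp7*, *Tgfb2*, *Bmpr1a*, *Bmpr1b*, *Acvr1b*, *Bmpr2*, *Tgfbr3*, *Smad7*, *Chrdl1*, *Ltbp1* and *Fstl4*). That is 25.0%, beside 13.6% of all genes tested (6.87% higher and 6.70% lower). Without *Chrdl1* and *Inhbb*, which met the filter through 1 group, 13 of 54 were called, 2 higher and 11 lower. The 56 fold changes had a median of -0.18 on the log2 scale. Calls for *Bmp7*, *Tgfb2*, *Tgfb3*, *Bmpr1b* and *Tgfbr3* held when any 1 library was left out, and the other 9 did not. Without homozygote replicate 3 or the deepest heterozygote library 6 were called, without the shallowest heterozygote library 8, and without the middle heterozygote library or homozygote replicate 1 there were 9. Calls over all 14011 genes fell in these fits too, from 1901 to 1023 without homozygote replicate 3 and 1268 without the deepest heterozygote library. They were 1223 without the shallowest heterozygote library, 1257 without the middle one and 1696 without homozygote replicate 1. In homozygotes against controls, *Bmp2*, *Bmp7*, *Gdf6*, *Tgfb2*, *Tgfb3*, *Bmpr1b*, *Bmpr2*, *Tgfbr3*, *Bmper* and *Ltbp1* held in each such fit, and 10 were called without the shallowest control library or homozygote replicate 3. Over all genes, leaving out these libraries gave 1049 and 1267 calls, against 2133 in the main fit. Against heterozygotes, the calls of *Bmp2*, *Bmpr1a*, *Acvr1b*, *Bmpr2*, *Smad7*, *Ltbp1*, *Bmp2k* and *Fstl4* were lost without limma's trend, those of *Bmpr1a*, *Smad7*, *Chrdl1*, *Ltbp1* and *Fstl4* with the trend on gene length removed, those of *Bmpr1a*, *Acvr1b*, *Smad7* and *Fstl4* in a fit of the compared groups alone, and that of *Fstl4* also in edgeR and with quantile normalization. Both comparisons share the homozygote libraries and are therefore not independent.

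Heterozygotes against controls gave no call among the 56 genes by limma or edgeR, beside 0.143% of all genes, and 4 of the 56 had an unadjusted p under 0.05 in limma, near the 7.37% of all genes that did, so this count is no result about them. Log2 fold changes in this comparison ran from -0.47 for *Bmpr2* to 0.82 for *Inhbb*, with a median of -0.01. *Inhbb*, *Bmpr2*, *Bmp2* and *Bmp7* had 95% intervals that did not include 0 (0.17 to 1.48, -0.73 to -0.20, -0.51 to -0.03 and 0.03 to 0.39), and their lowest adjusted p was 0.291. *Inhbb* reached a value of 1 in 0 control libraries and has a row only through its homozygote libraries, so its interval supports no difference.

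**Figure D5:**
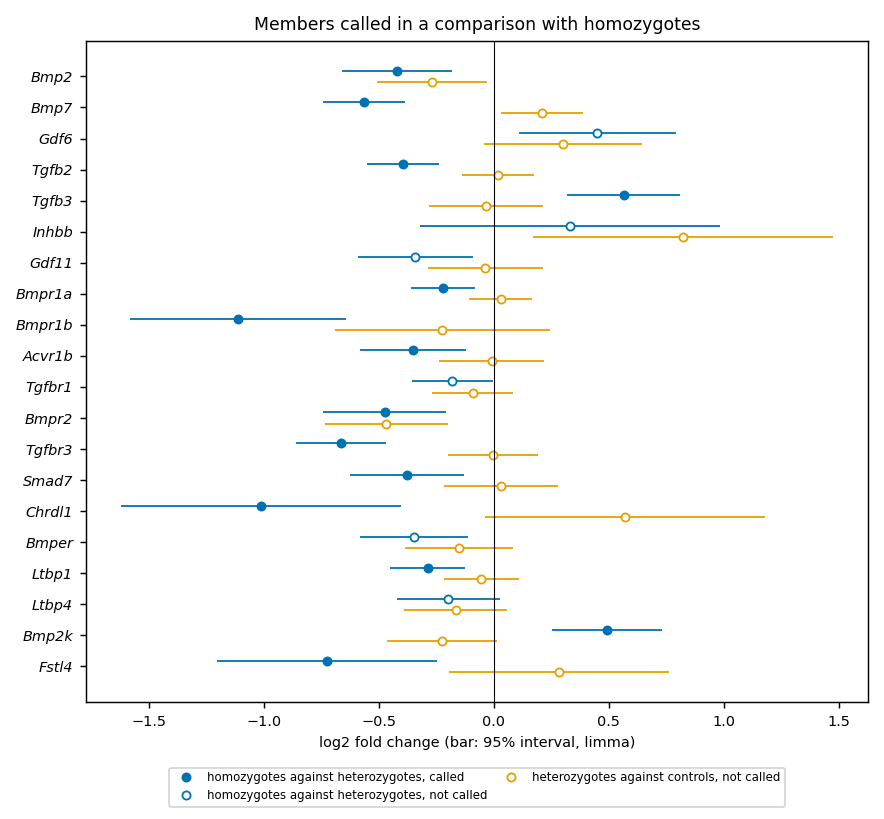
Log2 fold change (x axis) of the 20 genes called in either comparison with homozygotes (y axis), for homozygotes against heterozygotes (blue) and heterozygotes against controls (orange), where bars are 95% limma intervals and filled points are called at an adjusted p under 0.05. Filled points number 14 for homozygotes against heterozygotes and 0 for heterozygotes against controls.

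A further 67 genes of the pathways with other symbols were listed, and 57 had a row. Of these 57, homozygotes differed from controls in 10 (17.5%), 3 higher and 7 lower, and from heterozygotes in 10 (also 17.5%), 4 higher and 6 lower. These shares are near those of all genes tested, 15.2% and 13.6%, so the counts are not a result about the list. Heterozygotes against controls gave 0 calls by limma and edgeR, with 5 of 57 at an unadjusted p under 0.05, also near the 7.37% of all genes. Of the 5 listed genes of the TAK1 branch, which signals without SMADs, *Map3k7* rose and *Tab1* and *Xiap* fell against controls, and *Tab2* and *Tab3* were not called. *Tab1*, which encodes the activator of that kinase, averaged 33.1 ± 1.23 in controls, 35.0 ± 3.42 in heterozygotes and 19.4 ± 3.41 in homozygotes and fell in both comparisons (log2 fold change -0.77 and -0.84, adjusted p = 0.00114 and 0.000772). *Map3k7*, the kinase gene itself, gave 0.19 and 0.18 (adjusted p = 0.0289 and 0.0418), the first call lost when any control or homozygote library was left out and the second when any of the 9 libraries was (adjusted p 0.0502 to 0.0799 and 0.0518 to 0.15). *Xiap*, another partner of the kinase complex, fell against controls (-0.24, adjusted p = 0.0116) and gave -0.02 against heterozygotes, and the first call was lost without the shallowest control library (adjusted p = 0.0555) and with the trend on gene length removed, where the fold change was -0.11 (adjusted p = 0.316). With that trend removed *Xiap* gave 0.07 against heterozygotes.

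*Zfyve9*, which encodes the SMAD anchor SARA, rose to 59.3 ± 2.62 from 41.8 ± 3.64 in controls and 49.4 ± 1.55 in heterozygotes (log2 fold change 0.50 and 0.26, adjusted p = 0.000983 and 0.038). The groups did not overlap, and the call against heterozygotes was lost without the middle control library, any 1 heterozygote library or any 1 homozygote replicate (adjusted p 0.0509 to 0.108). *Bambi*, a decoy receptor and target of the pathway, fell against heterozygotes (-0.37, adjusted p = 0.00509) and gave -0.20 against controls (adjusted p = 0.0851). The co-receptor gene *Hfe2* rose against controls (0.52, adjusted p = 0.034), and the BMP modulator *Twsg1* fell (-0.21, adjusted p = 0.0357), with the first call lost without the middle or shallowest control library or homozygote replicate 1 or 2 (adjusted p 0.0957 to 0.109) and the second without any 1 control library or homozygote replicate 2 or 3 (adjusted p 0.0568 to 0.137). *Hfe2* was called against heterozygotes without homozygote replicate 3 (0.57, adjusted p = 0.0453). Against heterozygotes the BMP and Wnt antagonist *Sost* and the nodal cofactor *Foxh1* rose (0.71 and 0.70, adjusted p = 0.0234 and 0.0365), and both calls were lost without the deepest or shallowest heterozygote library or homozygote replicate 1, and that of *Foxh1* also without homozygote replicate 2 or 3 (adjusted p 0.0656 to 0.0779 for *Sost* and 0.0663 to 0.114 for *Foxh1*).

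Among matrix and protease genes of the list, *Fbn2*, *Thbs1* and *Tgfbi* fell against controls, and *Fbn1*, *Emilin1* and *Tll1* were not called in any comparison. *Fbn2*, the fibrillin of embryonic tissue, fell from 327 ± 37.5 in controls and 352 ± 38.8 in heterozygotes to 249 ± 30.9 (log2 fold change -0.39 and -0.50, adjusted p = 0.0216 and 0.00702), and the call against controls was lost without the shallowest control library or homozygote replicate 3 (adjusted p 0.0879 to 0.102), without limma's trend (adjusted p = 0.094) and with the trend on gene length removed (-0.23, adjusted p = 0.134). *Thbs1*, which encodes an activator of latent TGF-beta, and *Tgfbi*, a matrix target of TGF-beta, gave -0.36 and -0.61 against controls (adjusted p = 0.0142 and 0.0178). The *Thbs1* call was lost without the deepest or shallowest control library or homozygote replicate 3 and that of *Tgfbi* without the deepest control library or homozygote replicate 2 (adjusted p 0.0567 to 0.0608 and 0.0648 to 0.0682). *Furin*, a convertase of TGF-beta precursors, fell against heterozygotes (-0.26, adjusted p = 0.0484), a call lost without the deepest control library, any 1 heterozygote library or homozygote replicate 2 or 3 (adjusted p 0.0645 to 0.19) and in 7 of the other alternatives, with a fold change of -0.17 once the trend on gene length was removed. Calls were gained for *Furin* against controls without homozygote replicate 1 (-0.31, adjusted p = 0.0205) and for *Tgfbi* against heterozygotes without the shallowest heterozygote library (-0.62, adjusted p = 0.00423).

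Of the transcription factors downstream, *Tbx20* fell against controls (-0.42, adjusted p = 0.00303) and gave -0.22 against heterozygotes (adjusted p = 0.0697), which was called without homozygote replicate 2 (-0.30, adjusted p = 0.0226) and with quantile normalization. *Tbx3*, a factor of the atrioventricular canal, and *Snai1*, a factor of cushion mesenchyme, fell against heterozygotes (-0.45 and -0.73, adjusted p = 0.0445 and 0.0142). The *Tbx3* call was lost without the deepest or middle control library, the deepest or middle heterozygote library or homozygote replicate 1 or 2 (adjusted p 0.0509 to 0.169), and that of *Snai1* without the deepest heterozygote library (adjusted p = 0.0575). Against controls *Snai1* gave -0.53 (adjusted p = 0.0531), and it was called without homozygote replicate 1 (-0.66, adjusted p = 0.0281), by edgeR, with a filter on the mean value of 5 and with the trend on gene length removed (lowest adjusted p = 0.0235). *Msx1*, *Msx2*, *Tbx2*, *Hey1*, *Snai2*, *Twist1* and *Ctgf*, other genes used as readouts of these pathways, were not called in any comparison. The cushion markers given above include *Tbx20* and *Twist1*. Of the calls in this list, those of *Twsg1*, *Hfe2*, *Map3k7*, *Thbs1*, *Fbn2* and *Tgfbi* against controls and of *Zfyve9*, *Map3k7*, *Furin*, *Fbn2* and *Tbx3* against heterozygotes were lost without limma's trend. With the trend on gene length removed, those of *Twsg1*, *Hfe2*, *Xiap*, *Thbs1* and *Fbn2* against controls and of *Foxh1*, *Furin* and *Tbx3* against heterozygotes were lost. In a fit of the compared groups alone *Twsg1* lost its call against controls and *Map3k7*, *Furin* and *Tbx3* theirs against heterozygotes, quantile normalization ended those of *Twsg1*, *Furin* and *Tbx3*, and edgeR that of *Foxh1*.

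Levels of the 56 genes spanned a wide range. The mean over all libraries was at least 10 in 39 genes and under 5 in 11, and 23 were below the median of all genes (25.8). Per kilobase of exon in controls, the highest were the secreted glycoprotein gene *Fstl1* (131), *Id2* (119), *Id3* (61.8) and *Id1* (36.4), and the lowest were *Inhbb* (0.0999), *Ltbp2* (0.171) and *Chrdl1* (0.179). Among the ligands *Bmp7* (28.0), *Bmp10* (21.0) and *Tgfb2* (17.9) led, and among the receptors *Bmpr1a* (29.3), *Tgfbr1* (21.3) and *Tgfbr3* (14.9). *Bmpr2* was 11.8 in controls and 5.98 in homozygotes on this scale, and *Tgfbr2* was 4.32 and 3.76. Besides *Acvr1b* and *Acvrl1*, the pairs that start within 1 Mb of each other were *Acvr1* with *Acvr1c* (209.3 kb), *Smad3* with *Smad6* (264.1 kb), *Gdf2* with *Bmpr1a* (562.3 kb) and *Smad2* with *Smad7* (874.1 kb), and no gene of these 4 pairs was called against controls.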

How the data were processed

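The 9 RNA-seq libraries, 3 per genotype, came from pools of 6 hearts at E10.5. For these libraries the authors deposited normalized signal values per gene, made with the transcriptome of NCBIM37 and Ensembl gene build 65. The submitters' processing notes name CASAVA 1.8, cutadapt 1.6.1, RSEM 1.20, Bowtie2 0.12.7 and limma without roles, and the normalization method is not given in the sources used here. In the deposited signal values 100% were whole reads plus 0.5 (within 0.1 read), multiplied by 1000000 and divided by the reads of the library times a TMM factor computed with edgeR (0.955 to 1.03), so depth was recovered. Each of the 14011 genes reached 1 in 3 or more libraries, and lower genes were not analysed here. Genes of few reads are imprecise at these depths.

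GENCODE M1 of the same build gave the symbols, positions and exon lengths and named 13987 genes. Columns of controls and heterozygotes were assigned by their names and the paper's description of the genotypes. Values were tested as log2(value + 0.5) with limma 3.58.1 (R 4.3.3), 9 libraries and 3 groups in one fit with one mean-variance trend, and adjusted by Benjamini-Hochberg over all genes. Alternatives were other pseudocounts (0.1 and 1), filters on the mean value (1 and 5), the compared groups alone, quantile normalization, no trend, edgeR 4.0.16 on the recovered reads with TMM or RLE factors, removal of the trend with gene length (loess, span 0.5), a replicate block, an adjusted p under 0.01 and leaving out each library. The scripts were tested on simulated data. Tables were prepared with Python 3.11.15. Replicates differed by more than counting noise (chi-square of 3.19 to 7.12 for each degree of freedom), so none was a copy of another.

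The genes were set by symbol, and genes called in any comparison are given with each library's value, while others appear by mean, range or fold change in their role or are named as not called. Genes of the pathways with other symbols are named where called, and those named as not called were chosen after their values were seen. The genes, the lists and the tests were chosen with earlier results of these data known. Promoter windows are from RefSeq. Values of some single genes are not reported here.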

Additional observations from a re-analysis of the deposited data

How the results depend on the processing

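The alternatives were followed gene by gene for 37 genes, *Ctcf* and those of both lists called in at least 1 comparison, and not for the others. No call of these changed direction. Among their comparisons without a call, 12 log2 fold changes changed sign. With the trend on gene length removed these were *Xiap* against heterozygotes (0.070) and, for heterozygotes against controls, *Tgfbr3* (0.015, and 0.0030 with quantile normalization) and *Ltbp1* (0.0012). When each library was left out, heterozygotes against controls gave -0.038 to 0.074 for *Tgfb2*, -0.089 to 0.061 for *Tgfb3*, -0.13 to 0.039 for *Gdf11*, -9.81e-05 to 0.055 for *Bmpr1a*, -0.079 to 0.049 for *Acvr1b*, -0.051 to 0.079 for *Tgfbr3*, -0.030 to 0.12 for *Smad7*, -0.096 to 0.0035 for *Ltbp1*, -0.011 to 0.043 for *Map3k7*, -0.019 to 0.077 for *Furin* and -0.37 to 0.0083 for *Tgfbi*. The number of the 56 genes called between homozygotes and controls was 15 and fell to 9 at an adjusted p under 0.01, and it was 10 to 16 when each library was left out. Between homozygotes and heterozygotes it was 14, and it was 6 without limma's trend, 9 with the trend on gene length removed, 5 at an adjusted p under 0.01 and 6 to 13 when each library was left out. Between heterozygotes and controls it was 0 and was 0 to 1 when each library was left out, where the 1 was *Bmpr2* without the deepest control library. Of the 57 pathway genes with other symbols, 10 were called between homozygotes and controls, 4 without limma's trend, 3 at an adjusted p under 0.01 and 4 to 12 when each library was left out. Between homozygotes and heterozygotes 10 were called, 5 without limma's trend, 3 at an adjusted p under 0.01 and 3 to 9 when each library was left out. The causes of these changes were not tested. Over all genes, 2133 were called between homozygotes and controls and 1395 with the trend on gene length removed. Without limma's trend 1196 were called, and 1049 to 2084 when each library was left out. Between homozygotes and heterozygotes the all-gene count was 1901, with 1491 once the trend on gene length was removed. It was 1063 without limma's trend and 1023 to 1859 when each library was left out.

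Numbers that end the column names were tried as a replicate block. Libraries with the same number had correlations of their deviations between -0.0429 and 0.0851, so the numbers were not taken as pairs. With the replicate block, 13 of the 56 genes were called between homozygotes and controls and 10 between homozygotes and heterozygotes, and 7 and 5 of the other 57. Over all genes the block gave 1756 and 1553 calls.

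With 3 pools per genotype and 4294537 reads in the shallowest library, *Inhbb*, *Chrdl1*, *Gdf2*, *Ltbp2* and *Inhba*, at mean values under 2, had wide intervals, and a small change in them was not detectable at this depth. Total RNA per cell and the makeup of the hearts were not measured.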
